A study of Drosophila melanogaster with 2 samples.

Results

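In whole Drosophila melanogaster embryos, 238 of the 2862 reproducible Fer2 peaks (8.32%) had their summit at or just downstream of the start of a protein-coding gene, inside the transcribed side of the promoter. Members were chosen by position alone: the nearest protein-coding transcription start site (TSS) lay within 500 bp of the summit, and the summit lay on that TSS or downstream of it in the direction of transcription. They made up 14.9% of the 1597 promoter peaks found by the same distance (Wilson 95% interval 13.2 to 16.7%), and the other 1359 promoter peaks had their summit upstream. The 238 peaks belonged to 235 genes.

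Both samples came from chromatin of embryos aged 6 to 24 h of a transgenic line that stably carries Fer2 with green fluorescent protein (GFP) joined to its C-terminal end, sheared by sonication into pieces of 200 to 800 bp and pulled down by an anti-GFP antibody. They are 2 biological replicates of 1 group, with the submitters' numbers 2 and 3, and an input or untagged sample was not analysed here. What drives the tagged protein is not given in the sources used here, and whole embryos mix every cell type, so a peak cannot be tied to a cell type. The deposited lists held 30000 peaks for each replicate, 30000 for the pooled reads and 2862 kept by the authors' reproducibility threshold, with no read counts, so the depth behind each peak is unknown.

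Fer2 belongs to the basic helix-loop-helix (bHLH) transcription factors and is known in adult flies for its part in the development and upkeep of a group of dopamine neurons. Proteins of this class bind DNA in pairs at the E-box, CANNTG. In an active fly promoter the DNA just upstream of the TSS is usually free of nucleosomes, and the stretch just downstream holds core promoter elements such as the initiator and the downstream promoter element, the paused RNA polymerase and the first nucleosome of the gene. Many fly genes have several start sites, and many lie head to head with a neighbour, so a summit downstream of one TSS can be upstream of another.

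The summit windows below are those of the 8 members with the highest signal value on the chromosome arms printed here whose window holds at most 30 annotated bases of untranslated region (UTR). Higher intronic members such as E(z) did not meet those limits. All 8 summits lay in a first intron, and GC content ran from 23.8% in CG8128 to 34.7% in scramb2 and Fer2LCH. The UTR limit favoured introns, so these windows do not stand for all members. Of all members, 69.3% had their summit in a 5′ UTR and 27.7% in a first intron, and median GC content was 35.6%. Each window is 101 bases, 50 on either side of the summit, from the RefSeq Release 6 assembly (dm6), written 5′ to 3′ on the strand of the gene. Capitals mark an E-box (CANNTG), the GATA word GATAA, the homeodomain core TAATTA, the GAGA element GAGAG or the DNA replication-related element TATCGATA, on either strand.
CG11309, chr3L:21304515-21304615, minus strand: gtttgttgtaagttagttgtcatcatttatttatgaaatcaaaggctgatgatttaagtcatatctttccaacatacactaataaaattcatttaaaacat
CG31612, chr2L:21794911-21795011, minus strand: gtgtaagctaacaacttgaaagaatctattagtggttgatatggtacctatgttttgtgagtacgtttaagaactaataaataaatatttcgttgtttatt
CG8128, chrX:15697925-15698025, plus strand: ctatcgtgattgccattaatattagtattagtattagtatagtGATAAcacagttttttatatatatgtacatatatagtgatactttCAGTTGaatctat
Cftr, chr3R:24543187-24543287, minus strand: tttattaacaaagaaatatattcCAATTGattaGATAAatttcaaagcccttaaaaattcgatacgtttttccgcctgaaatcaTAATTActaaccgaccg
scramb2, chr3L:3046398-3046498, minus strand: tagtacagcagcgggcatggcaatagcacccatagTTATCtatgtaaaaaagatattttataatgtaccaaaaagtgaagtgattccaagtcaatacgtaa
Fer2LCH, chr3R:30388374-30388474, plus strand: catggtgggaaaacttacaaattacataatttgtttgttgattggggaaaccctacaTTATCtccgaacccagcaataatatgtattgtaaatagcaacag
CG9992, chrX:16384063-16384163, minus strand: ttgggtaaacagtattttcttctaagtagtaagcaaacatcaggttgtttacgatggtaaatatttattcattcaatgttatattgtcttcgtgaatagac
dbo, chr3L:15827278-15827378, plus strand: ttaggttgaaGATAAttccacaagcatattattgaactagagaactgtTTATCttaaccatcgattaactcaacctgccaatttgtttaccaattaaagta
Fer2LCH encodes the ferritin light chain, an iron-storage protein, and shares only its first letters with Fer2. Of these 8 windows, those of CG8128 and Cftr held an E-box.

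The next 4 sequences are the central 30 bases, on the same terms, of the 4 members with the highest signal value whose summit lay in a 5′ UTR. No marked word fell in them.
ph-p, chrX:2137908-2137937, minus strand: tctattatataattctattttactaaacgt
PNPase, chr3R:31404655-31404684, minus strand: ccaagtctcaagaaacgtacagggctttta
mRpL23, chr3L:2373604-2373633, minus strand: aaagtggtaaaagtgtggaatattttatag
Chro, chr3L:22878889-22878918, minus strand: tggactgcagttagtttaaagctatcgaca

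Most members sat close to the start site. Their summits lay from 0 to 500 bp downstream, with a median of 78.5 bp and quartiles of 27.2 and 197 bp. Of the 238, 92 (38.7%) lay within 49 bp, 47 at 50 to 99 bp, 40 at 100 to 199 bp and 59 at 200 to 500 bp. Upstream summits had a median position of -136 bp, so the 2 sets met at the TSS but were not mirror images.

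**Figure D1:**
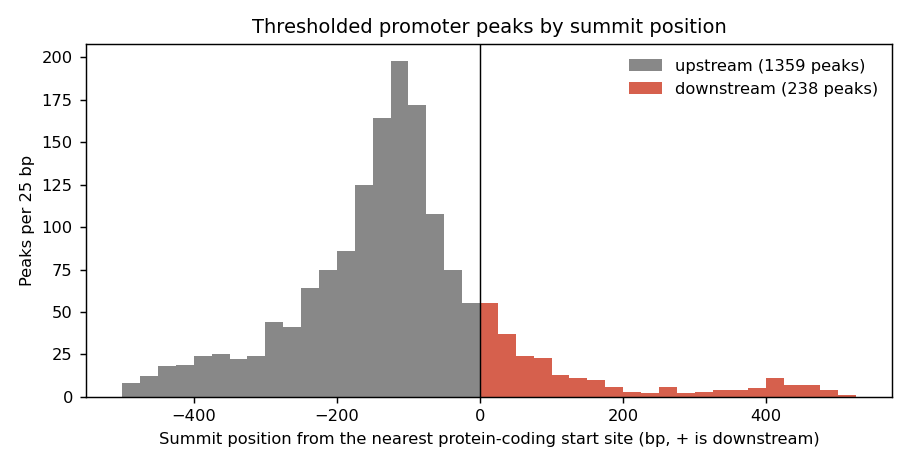
Number of thresholded promoter peaks per 25 bp against the position of the summit from the nearest protein-coding start site in bp, positive downstream, for the 1359 upstream and the 238 downstream peaks. Downstream peaks were most frequent next to the start site. Upstream peaks had a median of -136 bp and quartiles of -212 and -92 bp, and between the quartiles they lay more densely on the start-site side of the median.

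The position rule cut through a continuous run of summits. Just inside it were CG9147, with its summit on the TSS base itself (signal value 511, rank 89), and Ski6, an RNA exosome subunit, at 1 bp (159, rank 950). Just outside were Bhmt and CG8036, both at -1 bp, with signal values of 91.8 and 78.5. At the outer limit CG12746 at 500 bp (77.3) and qtc at 499 bp (95.4) were inside, and Eip63F-1 at 506 bp (230.2) and CG33725 at 508 bp (96.3) were outside.

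Summits fell in the 5′ UTR at 165 members (69.3%), in an intron at 69 (29.0%, 66 of them the first intron) and in coding sequence at 4 (1.68%; 0.655 to 4.24%). These 4 were peaks of eIF3h, CG15531, CG7386 and CG44812, named here for their location after their values were seen, and their signal values were 76.4 to 91.6. Among 2407 weaker pooled peaks that no thresholded peak overlapped and that met the same position rule, 1384 (57.5%) lay in a 5′ UTR and 477 (19.8%; 18.3 to 21.5%) in coding sequence. The weaker summits lay further in, with a median of 150 bp from the start and quartiles of 57.0 and 295 bp, against a median of 78.5 bp at members. Contrasts with this set are therefore not at like distances. These shares of location were not compared by a test. The called interval itself covered the TSS at 151 members (63.4%).

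For most members, downstream of one start meant upstream of another. At 142 of the 238 (59.7%; 53.3 to 65.7%) the summit was within 500 bp upstream of some other annotated start. For 111 this was a start of the same gene, for 108 a start of another protein-coding gene (106 of them on the opposite strand), and for 82 both. The remaining 96 (40.3%) lay downstream of every start in range. A further same-strand start within 500 bp downstream of the summit was found at 46.6% of members and 13.1% of upstream peaks. Both shares are descriptions, since the rule itself used the position of the summit among the starts.

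Head-to-head gene pairs were more frequent at members. The rule used the same protein-coding starts to choose the nearest start and the side of the summit. The comparison below is therefore not independent of the rule and is a description of these lists. An opposite-strand protein-coding TSS lay within 500 bp upstream of the nearest start for 115 members (48.3%) and 506 upstream peaks (37.2%; odds ratio 1.58, two-sided Fisher's exact test, adjusted over 5 class comparisons, p = 0.00186). The difference did not pass the threshold when either replicate was left out (odds ratios 1.29 and 1.33, adjusted p = 0.0698 and 0.0505), with a range of 1 kb (1.29, adjusted p = 0.0680) or at summits 50 bp or more from the start (1.32, adjusted p = 0.122, all by the exact test). Peaks are not replicates of a condition, so these p-values describe the lists and not the spread between embryo collections.

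Nearly every member had a peak in both replicates, but the summit did not always stay on the downstream side. An overlapping peak was found in replicate 2 for 237 members and in replicate 3 for all 238. The exception was hb, with no overlapping peak in replicate 2. Both replicate summits were downstream of the same start at 185 members (77.7%; 72.0 to 82.6%), 1 of them at 47, and neither at 5. At upstream peaks both summits kept their side in 1285 of 1359 (94.6%). These shares are descriptions, since the rule itself used the side of the summit in a list made from both replicates. Members also lay closer to the cut: 38.7% of them and 9.35% of upstream peaks were within 49 bp of the start. The gap between the replicate summits had a similar size on each side, with a median of 39 bp (quartiles 18 and 68 bp) at members and 36 bp at upstream peaks.

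Distance to the start went with this difference. Among summits within 49 bp, both replicates kept the side at 51.1% of members and 60.6% of upstream peaks. At 50 to 99 bp the shares were 87.2% and 95.7%, at 100 to 199 bp 97.5% and 98.4%, and at 200 to 500 bp 98.3% and 99.2%. Of the 92 members within 49 bp, 47 were downstream in both replicates, and the remaining 45 were upstream in at least 1 replicate. Intronic members, none of which lay within 49 bp, were downstream in both replicates in 67 of 69 cases.

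**Figure D2:**
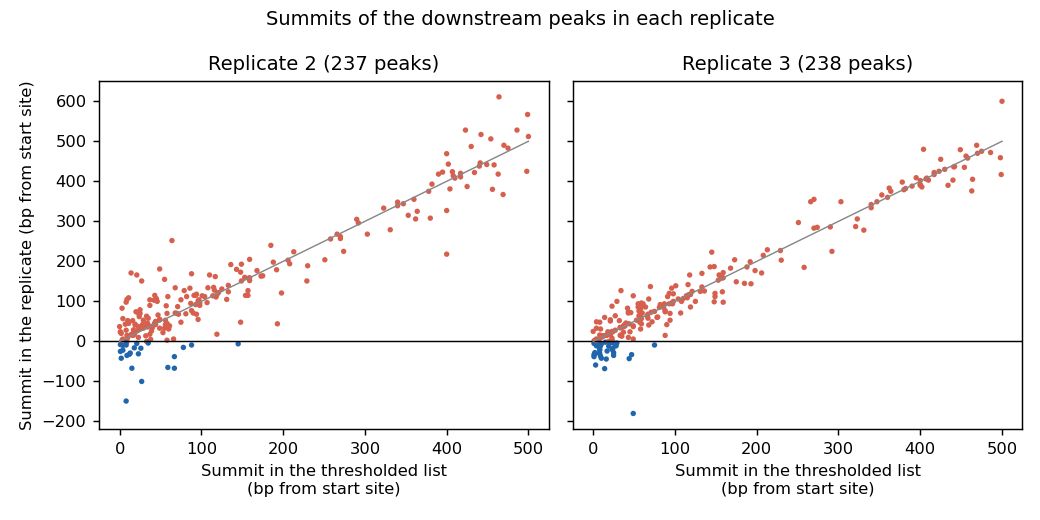
Position of the nearest overlapping replicate summit, in bp from the start site, against the summit position in the thresholded list, for replicate 2 (237 peaks) and replicate 3 (238 peaks); blue points fell upstream of the start, and the grey line marks equal positions. Summits followed the line over the whole range, and those that changed side were almost all close to the start.

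**Figure D3:**
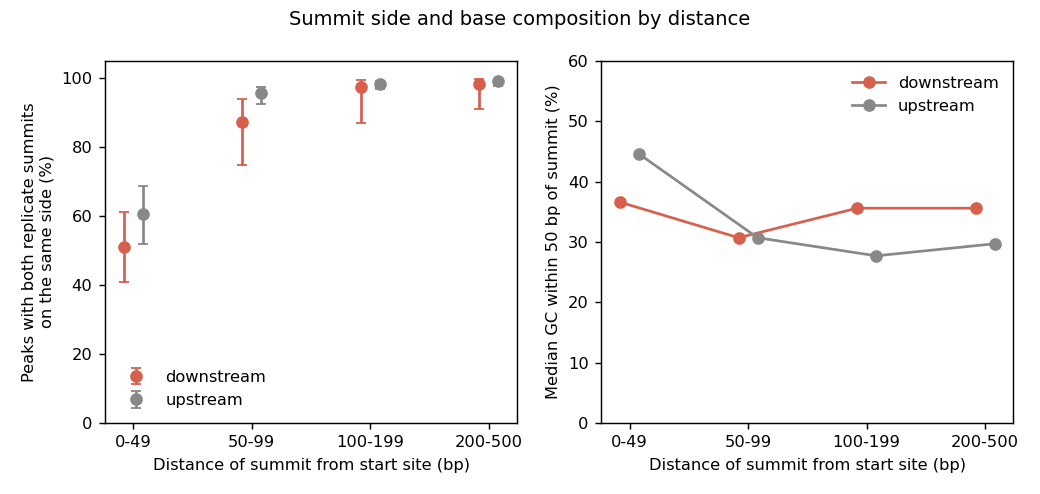
Left, share of peaks with both replicate summits on the same side of the start, with Wilson 95% intervals, by distance of the thresholded summit in bp; right, median GC content within 50 bp of the summit in %. The share rose from 51.1% of members within 49 bp to 98.3% at 200 to 500 bp, and the order of the GC medians of the 2 classes turned with distance.

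Signal values of members ran from 75.7 to 853, with a median of 121 and quartiles of 90.9 and 192; upstream peaks had a median of 134 and reached 2295. The signal value is a score of the authors' caller with no stated scale, so it is read here only as a rank within its list. Of the members, 118 (49.6%) were above the median of the thresholded list, against 777 upstream peaks (57.2%; odds ratio 0.737, two-sided Fisher's exact test, adjusted p = 0.0336). The difference did not pass the threshold at summits 50 bp or more from the start (0.749, adjusted p = 0.122), with only the outermost start of each gene (0.939, adjusted p = 0.673) or for the share among the 286 highest peaks of the list (0.738, adjusted p = 0.237; all Fisher's exact tests).

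The highest member was CG11309, whose window is printed above. Its summit lay 93 bp into the gene on chromosome arm 3L at 21304565, at rank 28 of the thresholded list with a signal value of 853. In replicate 2 it had a signal value of 431 (rank 16) and in replicate 3 of 428 (rank 35), with summits at 92 and 94 bp. The replicates thus placed it within 2 bp of each other, and it also lay upstream of a second CG11309 start and of CG7632.

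The second was ph-p, which encodes a subunit of Polycomb repressive complex 1, a chromatin repressor. Its summit lay 449 bp downstream in the 5′ UTR, at a signal value of 823 (rank 30). Replicate 2 gave 436 (rank 14, 442 bp) and replicate 3 gave 399.6 (rank 40, 479 bp). This summit was not upstream of any other start in range, and the gene also had an upstream promoter peak.

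PNPase, a mitochondrial RNA-degrading enzyme, followed at 71 bp with a signal value of 750.3; replicate 2 gave 280.2 (rank 49) and replicate 3 gave 472 (rank 30). mRpL23, a protein of the mitochondrial large ribosomal subunit, had 692 at 60 bp, with 224 (rank 92) and 466 (rank 33) in replicates 2 and 3. Chro, a chromodomain protein of polytene interbands and the mitotic spindle, had 685 at 81 bp, with 329 (rank 33) and 359 (rank 57). All 3 summits were downstream in both replicates, by 34 to 87 bp.

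The rest of the 20 highest were GstE13, a glutathione S-transferase; Elp5, of the Elongator complex that modifies transfer RNA; CG8892; CG9147; CG31612; pre-mod(mdg4)-E, one of the trans-spliced 3′ parts of the insulator gene mod(mdg4); E(z), the histone methyltransferase of Polycomb repressive complex 2; CG32022; CG8360; CG8320; RpL7; CG8128; Muted, a subunit of the lysosome-biogenesis complex BLOC-1; Cftr; and CG1227. Of these 20, 14 summits lay in a 5′ UTR and 6 in an intron, 16 were upstream of another start, and 14 had an opposite-strand start within 500 bp. In 19 of them both replicates were downstream of the start; the exception was CG32022, at -35 bp in replicate 2 and 10 bp in replicate 3. Their ranks ran from 14 to 581 in replicate 2 and from 30 to 211 in replicate 3.

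The genes came from many functions, with no list of genes taking a large part of the 238. Over all 13945 protein-coding genes, 235 (1.69%) had a downstream and 1303 (9.34%) an upstream promoter peak. The 22 gene lists are described by counts only, and no list was tested.

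Cytosolic ribosomal protein genes were the list with the most members: 12 of 92 genes (13%) had a downstream peak and 48 had an upstream peak. Downstream peaks were 12 of their 60 promoter peaks (20%, beside 14.9% over all genes). All 12 lay in the 5′ UTR, between 1 and 47 bp from the start. RpL7 was highest (423, rank 131, 32 bp), followed by RpL31 (204, 19 bp), RpS21 (183, 9 bp) and RpS29 (173, 24 bp).

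The replicates often differed in the side of the start for these 12 summits, and both were downstream at 4 of them. In replicate 2 the summit was downstream at 11 of 12, with a median of 46.5 bp, and in replicate 3 at 4 of 12, with a median of -6.50 bp. Replicate 2 was further downstream at 11 of the 12, by a median of 55.0 bp (quartiles 33.8 and 82.5 bp). RpL7 was the highest gene and ran the other way, at 14 bp in replicate 2 and 52 bp in replicate 3. At the 80 other members within 49 bp the median difference between the replicates was 16.5 bp, and at the 48 upstream peaks of ribosomal protein genes it was 2.00 bp. This comparison was chosen after the values were seen and was not tested.

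Other genes of translation and protein turnover had few members. The translation factor list gave 2 of 53 genes, with eIF3c at 15 bp (209) and 2 peaks of eIF3h, at 274 bp (147) and 58 bp (91.6). Single members came from the transfer RNA synthetases (SerRS, 23 bp, signal value 304), the proteasome (Rpn3, 26 bp, 84.8) and the mitochondrial ribosome (mRpL23). Oxidative phosphorylation gave ATPsynE at 17 bp (173) and ND-B22 at 8 bp (89.6). The 8 promoter peaks of chaperone genes and the 9 of glycolytic enzyme genes were all upstream, beside 14.9% downstream over all genes. These lists are small and were not tested against that share.

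Polycomb and trithorax group genes had 4 downstream peaks among 9 promoter peaks, beside 14.9% downstream over all genes. Besides ph-p and E(z) these were Trl, which encodes GAGA factor, and Su(z)12, a subunit of the same complex as E(z). This list is small and was not tested against that share. E(z) had its summit at 97 bp in the thresholded list and in both replicates, with signal values of 488 (rank 98), 197 (rank 120) and 288 (rank 89). Trl had a signal value of 179.8 at 136 bp, and replicates 2 and 3 placed it at 192 and 126 bp. Su(z)12 had 79.1 at 133 bp (rank 2700), with replicate ranks of 5752 and 2092, so it stood near the lower end of the list.

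Among transcription factors, both promoter peaks of segmentation genes were downstream and both were intronic. cnc, a bZIP factor, had a signal value of 115 at 340 bp, and replicates 2 and 3 gave 32.2 (rank 3575) and 87.1 (rank 978). hb, the gap gene hunchback, had 99.3 at 321 bp and 61.5 (rank 1724) in replicate 3. Of the ecdysone response genes, Eip75B, a nuclear receptor, had 251 at 37 bp, and Hr78, another nuclear receptor, had 135 at 93 bp in an intron. The 9 promoter peaks of bHLH genes, the 7 of Notch pathway genes and the 13 of the signalling list were all upstream. So were the 6 of axon guidance genes and the 2 each of homeodomain and pan-neuronal genes. Over all genes 14.9% of promoter peaks were downstream, and these small lists were not tested against that share.

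RNA processing gave sqd (78 bp, 114), B52 (14 bp, 88.0) and pAbp (456 bp, 76.8), which encode an hnRNP protein, an SR protein and the poly(A)-binding protein. The cell cycle list gave Dp, the partner of E2F, at 417 bp (173) and CycT, the cyclin of the elongation kinase P-TEFb, at 193 bp (80.9). CycT was also the single member from the list of general transcription factors. The cytoskeleton list gave Rho1, a small GTPase, at 10 bp (96.0) and alphaTub84B at 107 bp (79.5), and the insulator list gave Chro.

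**Figure D4:**
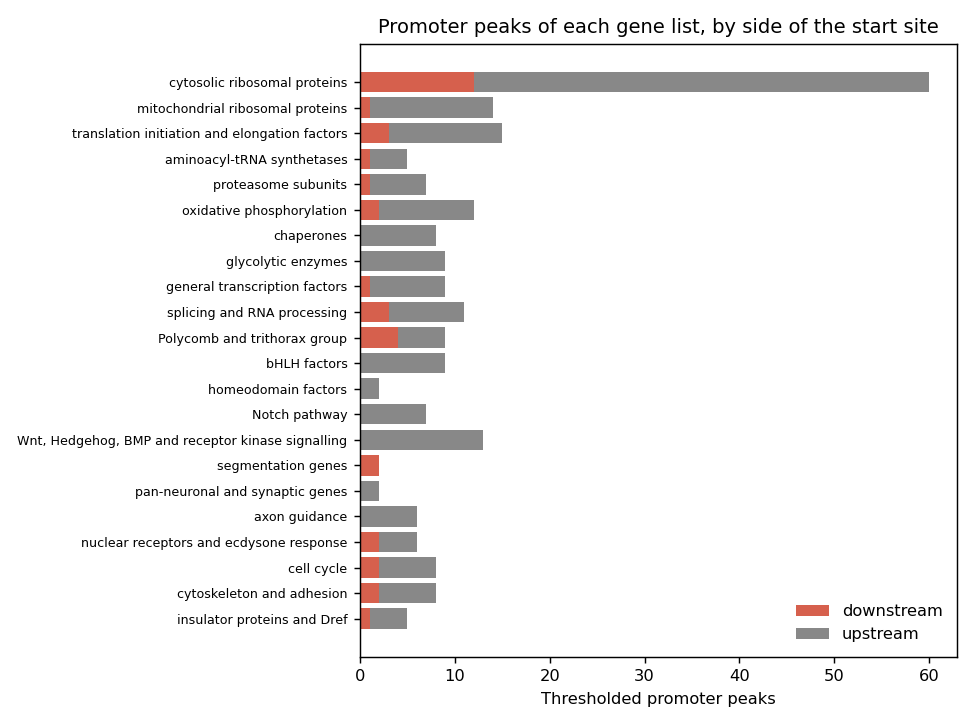
Number of thresholded promoter peaks of each of the 22 gene lists, stacked by side of the start site, downstream in red and upstream in grey. Ribosomal protein genes had 12 downstream among 60 peaks, Polycomb and trithorax group genes 4 among 9, and 8 lists had none. Over all genes the downstream share was 14.9%.

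The DNA under members was AT-rich, though over all distances less so than under upstream peaks. Median GC content within 50 bp of the summit was 35.6% at members, 29.7% at upstream peaks and 44.6% at the weaker downstream peaks. In windows centred 250 bp further downstream and upstream of the member summits it was 46.5% and 39.6%. GC content was above the median of all promoter peaks at 154 members (64.7%) and 642 upstream peaks (47.2%; odds ratio 2.05, two-sided Fisher's exact test, adjusted p = 1.25e-06). Against the weaker downstream peaks the share above their joint median was 20.2% and 51.6% (odds ratio 0.237, two-sided Fisher's exact test, p = 2.06e-21).

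The difference from upstream peaks turned with distance from the start. Within 49 bp, 66.3% of members and 83.5% of upstream peaks were above the median (odds ratio 0.390, adjusted p = 0.0154, Fisher's exact test, 16 tests). At 50 to 99 bp the shares were 51.1% and 56.3% (0.811, exact test, adjusted p = 0.671). Members were the higher at 100 to 199 bp (67.5% and 36.1%; 3.67, adjusted p = 0.00189) and at 200 to 500 bp (71.2% and 45.3%; 2.99, adjusted p = 0.00189, exact tests). These distance ranges were chosen after the data were seen. Members thus had the less GC-rich summits next to the start and the more GC-rich ones from 100 bp outward.

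**Figure D5:**
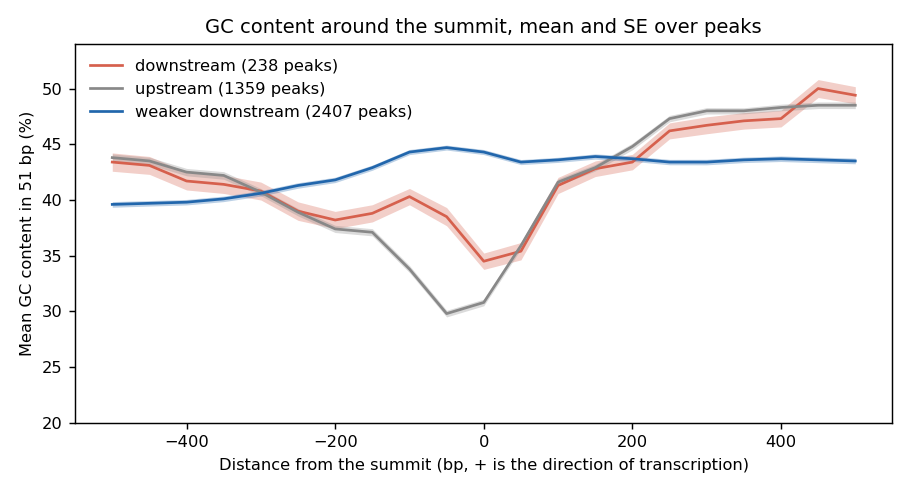
Mean GC content in 51 bp windows, in %, against distance from the summit in bp, positive in the direction of transcription, with the standard error over peaks shaded, for the 238 members, 1359 upstream peaks and 2407 weaker downstream peaks. GC content of members fell to 34.5% at the summit and rose to 46.2% at 250 bp, while the weaker peaks had no dip at the summit.

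Of 16 words looked for on either strand, up to 50 bp from the summit, 2 were called between members and upstream peaks, which is 12.5% of those tested (Fisher's exact test, adjusted p below 0.05). Both were E-box forms and both were more frequent at members. CANNTG was found at 91 members (38.2%; 32.3 to 44.5%) and 385 upstream peaks (28.3%; odds ratio 1.57, Fisher's exact test, adjusted p = 0.0214). CAGCTG, one form of it, was found at 21 members (8.82%; 5.84 to 13.1%) and 37 upstream peaks (2.72%; odds ratio 3.46, Fisher's exact test, adjusted p = 5.69e-04). CAGCTG is counted within CANNTG, so the pair are not independent. The other 14 words did not pass. GATAA was at 23.1% of members and 26.0% of upstream peaks, TATAAA at 22.3% and 28.4%, CGATA (the BEAF core) at 18.5% and 19.0%, and TAATTA at 11.3% and 12.4%. The E-box forms CATATG (4.62% and 3.38%), CAGGTG (1.68% and 1.99%) and CACGTG (1.26% and 0.883%) were scarcer than CAGCTG at members. CACACA was at 7.98% and 4.78%, GAGAG at 7.14% and 7.80%, and a run of 8 A at 6.72% and 6.25%. The MEF2-like words were at 5.46% and 7.36%, TATCGATA at 2.94% and 2.80%, the Zelda core CAGGTA at 2.52% and 1.62%, and the M1BP core GGTCACAC at 1.68% and 0.589%.

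Base composition and distance went with the E-box shares. Above the median GC content the E-box was at 44.8% of members and 34.0% of upstream peaks (adjusted p = 0.0478), and CAGCTG at 12.3% and 4.98% (adjusted p = 0.0144, exact tests). At or below it the shares were 26.2% and 23.3% for the E-box and 2.38% and 0.697% for CAGCTG (Fisher's exact test, adjusted p = 0.671 and 0.323). Within no single distance range did either word pass the threshold. CAGCTG did not pass without replicate 2 (odds ratio 2.27, adjusted p = 0.0536), and neither word passed at summits 50 bp or more from the start (CANNTG 1.45, adjusted p = 0.392; CAGCTG 2.93, adjusted p = 0.161, exact tests). CANNTG also did not pass among the 1431 highest peaks (1.37, adjusted p = 0.440), with starts of every biotype (1.46, adjusted p = 0.0698) or away from opposite-strand starts (1.54, adjusted p = 0.394, exact tests). Neither word was called against the downstream flank or the weaker downstream peaks, as given below. A word is a match of letters and not a measured site.

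Of the 21 members with CAGCTG at the summit, 19 lay in a 5′ UTR and 12 within 49 bp of the start, and 16 were downstream in both replicates. They include Kdm5, a histone demethylase, p38a, a stress-activated kinase, kdn, a citrate synthase, and sw, a dynein chain. These genes and the following sequences were chosen after their values were seen.

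The 5 sequences are 30 bases around the first CAGCTG, shown in capitals, of the highest such members among the arms printed here, 5′ to 3′ on the strand of the gene, from the RefSeq Release 6 assembly (dm6).
CG9399, chr3R:9574166-9574195, minus strand: gctgtagtacccCAGCTGttgcggtgctaa
CG12316, chr3L:15136770-15136799, minus strand: aagcacatatttCAGCTGattagatagtat
bchs, chr2L:5907613-5907642, plus strand: gtaaaccaagaaCAGCTGtctcgcacaaaa
RpS21, chr2L:2856089-2856118, plus strand: caacttcacgtcCAGCTGtcatttctttct
CG3764, chr3L:17012572-17012601, minus strand: cacactggcgcgCAGCTGcagctaacttcg
The word began at -29 bp from the summit in CG9399, -1 bp in CG12316 and -41 bp in CG3764. In CG3764 this was at -24 bp from the start, upstream of the 5′ UTR. The word began 15 bp after the summit in bchs and 22 bp after it in RpS21, which had 2 copies in its window. CG9399 was the highest, with a signal value of 249.7 (rank 410); replicate 2 gave 78.2 (rank 821) and replicate 3 gave 160.2 (rank 308). RpS21 and CG3764 had their replicate 3 summit upstream of the start, at -11 and -24 bp.

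Within members, the summit window was compared with a window of the same length centred 250 bp further downstream, by the exact McNemar test over 16 words. Of these, 4 (25%) were called. TATAAA was at 22.3% of summits and 10.5% of flanks, and TAATTA at 11.3% and 3.36%. CAGGTG was at 1.68% and 7.56% (adjusted p = 0.0137 for each of these 3), and GAGAG at 7.14% and 14.3% (adjusted p = 0.0305, exact McNemar tests). The 2 words that were more frequent at the summit hold no G or C, and GC content was lower at the summit than in this flank; its part in the result was not tested. CANNTG was at 38.2% of summits and 40.8% of these flanks (exact McNemar test, adjusted p = 0.776). CAGCTG was at 8.82% and 4.62% and was not called (exact McNemar test, adjusted p = 0.173). With the flank upstream in place of downstream no word was called, nor was any without replicate 2 (TATAAA odds ratio 1.62, CAGGTG 0.750, exact McNemar tests, adjusted p = 0.246 and 0.817), at summits 50 bp or more from the start, or away from opposite-strand starts. TAATTA also did not pass without replicate 3 (1.25, exact McNemar test, adjusted p = 0.918), and TATAAA alone passed among the 1431 highest peaks.

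Against the 2407 weaker downstream peaks, 6 of 16 words (37.5%) were called by Fisher's exact test. TATAAA (22.3% and 9.80%, adjusted p = 1.46e-06), TAATTA (11.3% and 4.90%, adjusted p = 0.00123), the MEF2-like words (5.46% and 2.16%), TATCGATA (2.94% and 0.872%) and CATATG (4.62% and 1.83%) were more frequent at members by the exact test. GAGAG was less frequent (7.14% and 13.3%, exact test, adjusted p = 0.0251). Without replicate 2 only TATAAA and TAATTA of these 6 passed, and the odds ratio of TATCGATA went from 3.44 to 1.12 (exact test, adjusted p = 0.825). Without replicate 3 TAATTA, the MEF2-like words and CATATG did not pass (odds ratios 1.47, 1.58 and 1.45). Among the 1431 highest peaks TATAAA alone passed, and away from opposite-strand starts none did. The MEF2-like words were TTATTTTTA, CTATTTTTA, TTATAATTA, CTATAATTA, TTAAAAATA and CTAAAAATA. CANNTG was at 38.2% and 42.7% (odds ratio 0.832, exact test, adjusted p = 0.307). CAGCTG was at 8.82% and 5.61% and was not called (odds ratio 1.63, exact test, adjusted p = 0.118). The GC content of the 2 sets and their distance from the start differed as given above.

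At the start sites themselves, 2 of 7 words (28.6%) were called between the 236 starts of members and the 1335 starts of upstream peaks. The initiator words, TCAGT or its variant TCATT, within 10 bp of the TSS on the sense strand, were at 9.75% and 16.6% (odds ratio 0.544, Fisher's exact test, adjusted p = 0.0341), beside 17.4% of all 19253 protein-coding starts. The downstream promoter element words (AGACGTG as well as AGTCGTG, and also GGACGTG along with GGTCGTG), at 15 to 45 bp, were at 0 of 236 member starts, which allows a share of up to 1.27% by 3 counts and 1.60% by the Wilson interval, and at 2.32% of upstream starts (exact test, adjusted p = 0.0341), beside 1.29% of all starts. Neither word passed with either replicate left out, where 0 words were called. The TATA box words, TATAAA or its variant TATATA, at -45 to -15 bp, were at 5.08% and 4.72%, beside 10.3% of all starts. The pyrimidine initiator words, CTTTT or its variant CTTTC, within 10 bp of the TSS, were at 6.78% and 7.04% (all starts 5.81%). From 150 bp upstream to the TSS, on either strand, TATCGATA was at 5.08% and 7.49% (all starts 5.73%) and GAGAG at 22.5% and 24.7% (20.9%). GGTCACAC, from 150 bp upstream to 50 bp downstream, was at 7.20% and 6.14% (5.98%).

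The 96 members downstream of every start in range stand beside the 142 that were upstream of another start. The 96 had a median signal value of 106 and the 142 of 134. Median GC content at the summit was 37.6% and 32.2%, and CANNTG was at 46.9% and 32.4%. Both replicates were downstream at 84 of 96 (87.5%) and 101 of 142 (71.1%). These 2 subsets were formed after the values were seen, and their differences were not tested. ph-p, CG31612, CG8128 and Cftr, from the 20 highest, were among the 96.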

How the data were processed

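Peaks were from ChIP-seq of tagged Fer2 in 2 replicates. Per the labels, the build was dm6, and the authors deposited 4 lists: 1 per replicate, 1 pooled and 1 thresholded on reproducibility from these. The deposited text files name the same control alignment for all lists; that control is not analysed here. Which caller, settings and threshold were used is not given in the sources used here. The deposited signal value is a score of the authors' caller with no stated scale; the deposited −log10 q-value was not used. The deposited summit offset, added to the start, gave the summit.

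Starts and locations came from the Ensembl release 115 annotation, and bases from the RefSeq Release 6 assembly, which is dm6. Coordinates are 1-based. Each member was matched to the nearest overlapping replicate peak (at least 1 bp). Shares were compared by two-sided Fisher's exact test, and windows within a peak by the exact McNemar test, with Benjamini-Hochberg adjustment per family and a threshold of 0.05. Intervals are Wilson 95% and cover counting of peaks only; the floor for 0 is 3 counts. Python 3.11.15, numpy 2.4.6, scipy 1.17.1 and matplotlib 3.10.9 were used. The Fisher's exact comparison of summit words with upstream peaks was checked on simulated counts, with words drawn independently of each other. The word search and the position rule were checked on planted cases. The other comparisons were not simulated.

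Members, words and the 22 gene lists were chosen with earlier results of these data known. Of 473 symbols listed singly, 19 were not found. Genes named were the 20 highest members, up to 4 per list and the 2 nearest each limit on each side; others are marked as chosen later. Alternatives left out a replicate by ranking the other's own list and taking its top 2862, or changed the distance, the start set, the window, the flank or the part of the list.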

Additional observations from a re-analysis of the deposited data

How the results depend on the processing

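Alternatives are given as values of odds ratios or counts of words called. GC content against upstream peaks reversed at 0 to 49 bp (0.390) and 50 to 99 bp (0.811), ranges added after the data were seen. With either replicate left out, the odds ratio for opposite-strand starts was 1.29 to 1.33, words called against upstream peaks were 1 to 5, at the start site 0, against the downstream flank as low as 0, and against weaker peaks as low as 2. At 50 bp or more from the start the upper-list share had an odds ratio of 0.749 and opposite-strand starts 1.32, and 0 words were called against upstream peaks, the flank or at the start site. In the upper part of the list (1431 peaks) each of the 4 word comparisons called 1 word and 118 genes were left; the share above the list's median has no value there. With a range of 250 bp, 0 start words were called. With the outermost starts the upper-list odds ratio was 0.939 and 1 start word was called; with starts of every biotype 1 word was called at the summit and 1 at the start. Without opposite-strand starts within 1 kb, 1 word was called against upstream peaks and 0 in the other 3 comparisons. The upstream flank called 0, the 286 highest peaks gave 0.738, and opposite-strand starts within 1 kb gave 1.29. The cause was not tested. The share of members with both replicate summits on their side stayed below that of upstream peaks wherever it was recomputed. Within the distance ranges this was not tested. The shares there were 97.5% and 98.4% at 100 to 199 bp, and 98.3% and 99.2% at 200 to 500 bp. No paired analysis was possible because there is 1 group.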

Other observations

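At 23 members (9.66%) the gene also had an upstream promoter peak, counted by gene, whichever of its starts that peak was nearest to. ph-p, at rank 30, was the highest of them, and Fer2LCH (rank 277) and Dp (rank 826) were among the others. Another 3 genes, eIF3h, CG18622 and Trpm, had 2 downstream peaks each. The pair in CG18622 lay at 229 and 27 bp with signal values of 273 and 76.7, and both overlapped the same replicate 2 peak, so they were not separate in that list. The pair in eIF3h lay at 274 and 58 bp, and the second had rank 13223 in replicate 3.

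The share of promoter peaks that were downstream was close between the large chromosome arms, from 13.7% on 3R (56 of 409) to 15.9% on X (36 of 226). All 6 promoter peaks on chromosome 4 were upstream, a downstream share of 0% with a Wilson interval of 0 to 39.0%.

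Taking the nearest start from another set changed who was a member. With the outermost start of each gene 180 of the 238 (75.6%) were members, and with starts of every biotype all 238 were. Applying the same rule to the 2862 highest peaks of each replicate's own list, 154 members (64.7%) overlapped a member in replicate 2 and 177 (74.4%) in replicate 3.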
